A study of Mus musculus with 20 samples.

Results

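The data are 10 of the 20 bulk RNA-seq libraries of a study of mouse small intestine: 5 from pups 7 weeks old and 5 from pups 2 weeks old, all born to dams with periodontitis, an inflammatory disease of the gums and tooth-bearing bone. They were chosen by the group and age in their titles, and every gene of the deposited count table was considered. The study asked how a mother's periodontitis bears on the intestine of her offspring. Its other 10 libraries, 5 at each age from pups of control dams, serve here only for comparison. In what follows "periodontitis pups" are the pups of dams with periodontitis: the labels state the treatment as periodontitis and mention no treatment of the pups themselves. PolyA RNA was sequenced from pieces of tissue harvested from the small intestine. The labels give no strain, sex, litter, segment of the intestine or number of pups per library. The p-values below therefore take the 5 libraries of an age as independent, and pups of 1 litter would not be.

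Newborn mice suckle and then pass to solid food, and the small intestine changes with them. The suckling epithelium takes up milk proteins whole through an apical network of endosomes and large lysosomes, digests lactose, and makes arginine. The weaned epithelium digests peptides, starch and sucrose at its brush border, and a growing bacterial flora meets antibodies, lectins and lymphocytes that the suckling intestine has in small supply. The comparison of 7 with 2 weeks spans that change.

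Libraries held 32121886 to 42563229 counts at 2 weeks and 21688016 to 38329638 at 7 weeks. CPM, the usual counts relative to library size, are given after scaling by the trimmed mean of M values (TMM), and a fold change is 7 against 2 weeks, in log2 units with its standard error (SE, 5 libraries against 5). Epithelial markers were high at both ages, as for the fatty acid binding protein gene Fabp1 at 450.4 to 762 CPM and 2712 to 5287 CPM. The membrane mucin gene Muc13 was at 1311 to 1535 CPM and 2568 to 6133 CPM. These levels are compatible with the intestine of the labels. The 2-week libraries also held transcripts of pancreas and stomach, given below. Library 5 of 7 weeks stood apart from the other 4 of its age: on the first principal component of the 10 libraries, which held 78.6% of the variance, it lay at -39.3, against -114 to -137 for the other 7-week libraries and 82.6 to 134 for the 2-week libraries. At 2 weeks, libraries 1 and 2 differed from libraries 3 to 5 in several digestive genes, given below. This does not make libraries 1 and 2 the unusual ones. For the arginase gene Arg2 they were at 143 and 203 CPM, libraries 3 to 5 at 9.46 to 30.2 CPM and 2-week control libraries at 165 to 227 CPM. For the ileal gene Fabp6 the values were 365 and 328, 2.92 to 17.4 and 197 to 510 CPM. Nearness to control libraries was not counted over other genes. The X-inactivation transcript Xist was at 131, 7.1, 0.71, 137 and 7.58 CPM at 2 weeks and 0.0786, 0.0512, 0.658, 0.498 and 0.0578 CPM at 7 weeks, and the Y-linked Ddx3y at 0.0374, 30.7, 35, 0.716 and 30.7 CPM at 2 weeks and 52.2, 75.2, 71.7, 152 and 29.2 CPM at 7 weeks, so the makeup of the libraries by sex differed between the ages. With a covariate for Y-linked transcripts, 4857 genes rose and 5782 fell.

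Of 17464 genes tested, 5312 rose from 2 to 7 weeks (30.4%) and 6230 fell (35.7%) at an edgeR adjusted p under 0.05, 66.1% in all, the share against which the counts of each gene group below are to be read. The median over all genes was -0.11. In 24.9% of the genes all 7-week libraries lay above all 2-week libraries, and in 28.3% all lay below, 53.2% in all. Changes were often large: 998 of the genes that rose and 2207 of those that fell did so by more than 2 log2 units, and 201 and 347 by more than 4. The direction of small changes depends on the scaling. The TMM factors differed between the ages by 0.80 log2 units on average, and with library totals alone 2009 genes rose and 10444 fell, the median over all genes was -0.88, and 308 genes were called in the opposite direction. In tissue RNA, fewer cells of a type and less RNA per cell cannot be told apart, which holds for every cell type named below.

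**Figure D1:**
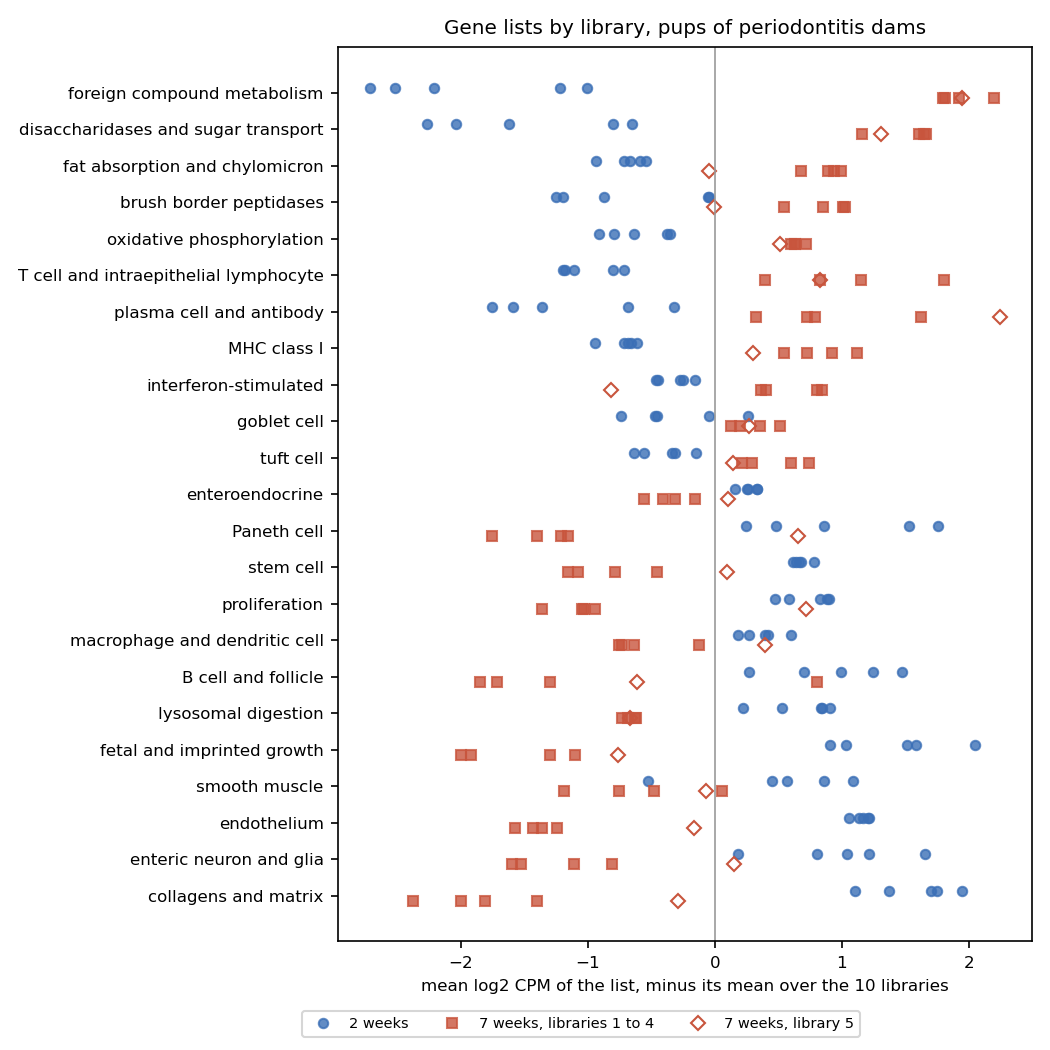
Mean log2 CPM of 23 gene lists in each of the 10 libraries from periodontitis pups, with each list's mean over the 10 libraries set to 0 on the horizontal axis. Circles are 2-week libraries, filled squares 7-week libraries 1 to 4 and open diamonds 7-week library 5. Lists of foreign compound metabolism, sugar digestion, T cells and antibodies lie to the right at 7 weeks, and lists of matrix, endothelium, fetal growth and lysosomes to the left. Library 5 of 7 weeks lies among the 2-week libraries in the Paneth cell, proliferation and macrophage lists, and below all of them in the interferon-stimulated list. Within the 2-week range also lie 7-week library 4 in the B cell list, libraries 3 and 4 in the goblet cell list and libraries 3 to 5 in the smooth muscle list. With library totals alone the median changes of the interferon-stimulated and goblet cell lists turn to -0.15 and -0.21.

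Enzymes and transporters of sugar digestion were mostly higher at 7 weeks. The promoters of 3 of its genes are shown because the genes had the largest rise in the list (Slc5a4b), the best-known rise of weaning (Sis) and the best-known role in suckling (Lct). They are the 250 bases before the start site, from RefSeq on GRCm38.p6, on the minus strand. Capitals mark the letters GTTAAT or ATTAAC, the core of sites for the hepatocyte nuclear factor HNF1, and TTTAT or ATAAA, letters found in sites for the intestinal factor CDX2. The Sis and Lct promoters were chosen after the values were seen.
Slc5a4b, chr10:76111019-76111268: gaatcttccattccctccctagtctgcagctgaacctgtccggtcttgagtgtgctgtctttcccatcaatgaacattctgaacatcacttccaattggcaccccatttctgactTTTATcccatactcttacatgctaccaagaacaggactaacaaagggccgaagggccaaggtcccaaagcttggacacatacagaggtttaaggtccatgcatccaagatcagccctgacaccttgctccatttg
Sis, chr3:72967864-72968113: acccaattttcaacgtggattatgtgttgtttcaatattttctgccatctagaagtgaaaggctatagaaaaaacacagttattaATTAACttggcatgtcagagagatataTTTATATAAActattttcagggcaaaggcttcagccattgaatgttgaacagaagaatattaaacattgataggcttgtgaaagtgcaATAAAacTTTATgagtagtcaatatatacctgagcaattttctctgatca
Lct, chr1:128328319-128328568: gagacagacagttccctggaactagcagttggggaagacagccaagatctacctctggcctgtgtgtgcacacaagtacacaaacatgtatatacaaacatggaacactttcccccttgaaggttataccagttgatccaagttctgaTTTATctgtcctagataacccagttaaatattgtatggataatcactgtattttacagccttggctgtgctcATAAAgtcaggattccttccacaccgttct

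The Sis window held 1 HNF1 core, 165 bases before the start, and 4 CDX2 matches, of which the pair nearest to the start begins 50 and 43 bases before it. The other pair begins 138 and 133 bases before the start and overlaps the letters TATAAA, read on both strands. The Lct window held 0 HNF1 cores and 2 CDX2 matches, and the Slc5a4b window 0 and 1. Of all 32851 RefSeq promoters of this length, 6.43% held the HNF1 core, 37.3% a CDX2 match and 12.4% the letters TATAAA. These are matches of letters and were not tested for binding. For Slc5a4b the 30 bases after this start were not found in its 1 GENCODE M21 transcript, so its window is the least certain of the 3. Among called genes of the list only Pfkfb1, a regulator of sugar breakdown, fell (-0.83 ± 0.28, edgeR adjusted p = 0.0143); it has several listed starts and its promoters are not printed.

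Of the 16 tested genes of disaccharidases and sugar transport, 14 rose and 1 fell, with a median of 2.66 against -0.11 over all genes. Sis (ENSMUSG00000027790, chromosome 3, 72888557 to 72967863 on GRCm38), the sucrase-isomaltase that splits table sugar and starch fragments, was at 277, 462, 28, 9 and 19.2 CPM at 2 weeks and 3498, 3368, 3446, 3272 and 2372 CPM at 7 weeks. Its 2-week libraries fell into a higher pair (1 and 2) and a lower trio, all far below the 7-week libraries, of which library 5 was lowest. The fold change was 4.33 ± 0.79 (edgeR adjusted p = 9.21e-05), and without 2-week library 2 it was 5.26.

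Trehalase (Treh) had the same split, with 144, 142, 53.6, 25.8 and 52 CPM at 2 weeks and 1057, 1213, 1416, 939 and 752 CPM at 7 weeks (3.69 ± 0.42, edgeR adjusted p = 6.04e-07). The starch enzyme maltase-glucoamylase (Mgam) changed by 2.65 ± 0.40. Lactase (Lct; ENSMUSG00000026354, chromosome 1, 128284756 to 128328318), the enzyme of milk sugar, did not fall: it was at 1172, 1069, 1081, 820.4 and 1083 CPM at 2 weeks and 2650, 3070, 4013, 2850 and 1979 CPM at 7 weeks. Every 7-week library exceeded every 2-week library, and the fold change was 1.48 ± 0.24 (edgeR adjusted p = 2.80e-05). With library totals alone the rise was 0.67 and was still called.

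Sugar transporters rose with the enzymes. The fructose transporter Slc2a5 was at 36.5, 43, 26.2, 19.4 and 23.5 CPM at 2 weeks and 938, 852, 394, 272 and 369 CPM at 7 weeks, a change of 4.25 ± 0.37 (edgeR adjusted p = 2.49e-08). At 7 weeks its libraries 1 and 2 stood well above the others, and no library overlapped with 2 weeks. The sodium-coupled glucose transporter Slc5a1 rose by 2.45 ± 0.22 and the basolateral glucose transporter Slc2a2 by 1.97 ± 0.19. Slc5a4b, a relative of Slc5a1, went from 0.536 to 7.88 CPM to 115 to 337 CPM (6.06 ± 0.65, and 6.79 without 2-week library 2).

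Peptide digestion changed in the same direction for most of its genes. Of 14 brush border peptidases 11 rose and 3 fell (median 1.69). Neprilysin (Mme) rose by 3.58 ± 0.34 and aminopeptidase N (Anpep) by 2.37 ± 0.26. Mep1a, the alpha subunit of the peptidase meprin, ran the other way: it was at 480.3, 376, 374, 462 and 430.1 CPM at 2 weeks and 99.8, 110.5, 145, 89.98 and 56.3 CPM at 7 weeks (-2.08 ± 0.20, edgeR adjusted p = 8.85e-08), without overlap. Of 15 amino acid and peptide transporters 10 rose and 3 fell (7 and 5 with library totals alone), and Slc15a1, which carries di- and tripeptides, rose by 3.30 ± 0.29.

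Of 20 genes for fat uptake and chylomicrons, the particles that carry dietary fat into lymph, 19 rose and 0 fell (median 1.43; 12 and 1 with library totals alone). Fabp1 was at 762, 758, 718, 450.4 and 613 CPM at 2 weeks and 4485, 5287, 4647, 4585 and 2712 CPM at 7 weeks (2.72 ± 0.19, edgeR adjusted p = 2.71e-09). Library 5 was the lowest at 7 weeks and still above all 2-week libraries. Mttp, which loads fat onto apolipoprotein B, rose by 1.55 ± 0.19, and Sar1b, a GTPase for the export of chylomicrons, by 2.07 ± 0.24. Rbp2, the retinol carrier of enterocytes, rose by 2.10 ± 0.19. Fatty acid oxidation and ketone synthesis went both ways (6 of 21 rose and 7 fell, median -0.01; 3 rose and 13 fell with library totals alone). Cpt1a, the gate of fatty acids into mitochondria, changed by -1.57 ± 0.23.

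**Figure D2:**
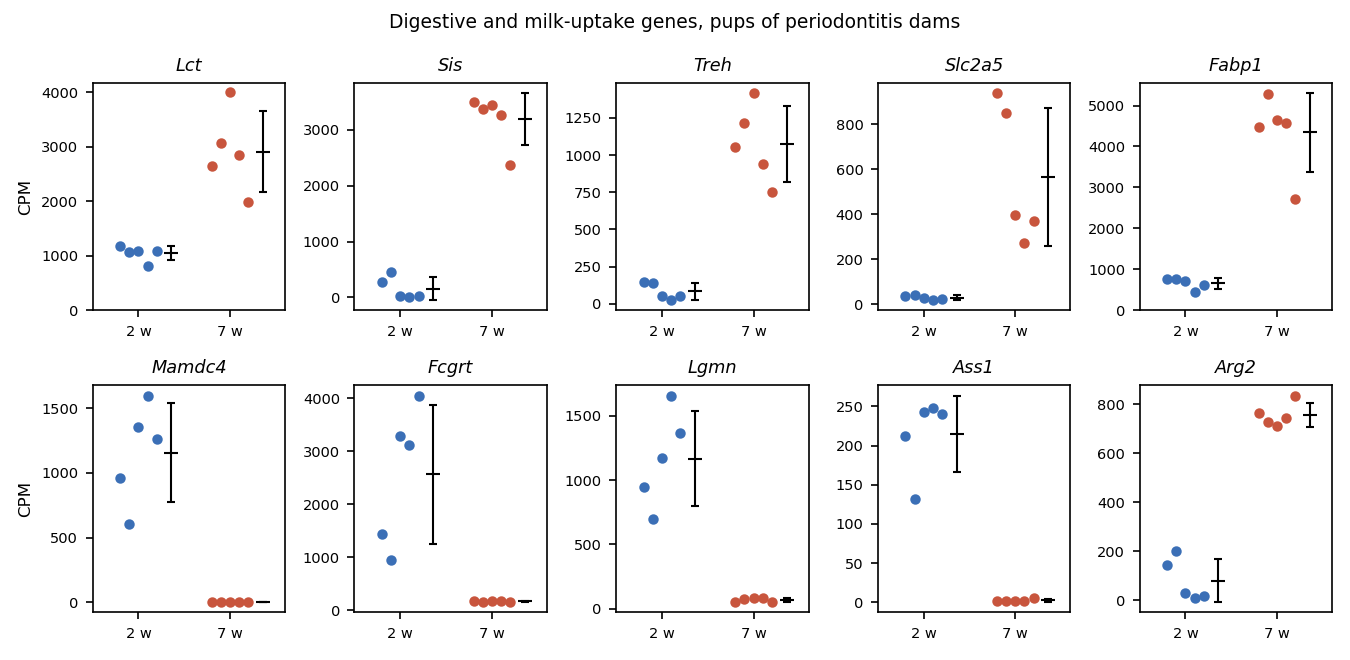
CPM of 10 digestive and milk-uptake genes at 2 weeks (2 w, blue) and 7 weeks (7 w, red) in periodontitis pups. Points are the 5 libraries of each age in the order 1 to 5, and the black mark with bars is their mean with SD. All 10 genes part the ages without overlap: Lct, Sis, Treh, Slc2a5, Fabp1 and Arg2 are higher at 7 weeks, and Mamdc4, Fcgrt, Lgmn and Ass1 are lower.

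Some genes of milk uptake and of suckling enterocytes were among the largest losses, but the markers of suckling enterocytes did not all fall. Of 20 tested markers 10 fell and 7 rose (median -0.75), and 12 fell and 7 rose with library totals alone. Meltf (ENSMUSG00000022780, chromosome 16, 31878810 to 31899020), which encodes the iron-binding protein melanotransferrin, was at 1167, 831, 1487, 1543 and 1229 CPM at 2 weeks and 0, 0, 0, 0.125 and 0.0868 CPM at 7 weeks. It went from one of the stronger transcripts to 3 libraries without a count, a fitted change of -14.81 ± 0.87 (edgeR adjusted p = 4.40e-10; -15.57 without 7-week library 5). Mamdc4, the apical endosomal glycoprotein, was at 963, 602, 1353, 1599 and 1264 CPM at 2 weeks and 0.275, 0.46, 0.52, 0.81 and 0.463 CPM at 7 weeks (-11.19 ± 0.86, edgeR adjusted p = 5.48e-09). The folate receptor gene Folr1 fell from 182 to 431 CPM to 1.21 to 1.81 CPM. Tdrp, also among the 15 largest falls, changed by -7.83 ± 0.59.

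Receptors and adaptors of endocytosis did not all move together. Of 12 listed genes 5 fell and 3 rose (median -0.60), and 7 fell and 1 rose with library totals alone. Fcgrt, the neonatal Fc receptor, by which suckling mice absorb antibodies from milk, was at 1439, 951, 3288, 3111 and 4049 CPM at 2 weeks and 169, 162, 178, 179 and 155 CPM at 7 weeks. The 2-week libraries 1 and 2 were again apart, here as the lowest, and the 7-week libraries were close together (-3.93 ± 0.51, edgeR adjusted p = 2.29e-06). The clathrin adaptor Dab2 fell by 6.69, from 139.6 to 295 CPM to 1.18 to 3.56 CPM, and megalin (Lrp2) changed by -4.45 ± 0.61 at low counts. Cubn, the cubilin receptor, did not pass (-0.82 ± 0.43, edgeR adjusted p = 0.0984): at 7 weeks it was at 47, 68.1, 288, 141 and 44.2 CPM, with library 3 above every 2-week library. Clu, a secreted chaperone, fell (-4.32 ± 0.53). Among the members that rose was Rab11fip1, an effector of recycling endosomes (1.51 ± 0.16).

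Lysosomal digestion fell broadly, with 22 of 33 enzymes and membrane proteins down, 1 up and a median of -1.22. The sialidase Neu1 was at 385, 276, 427, 464 and 436 CPM at 2 weeks and 50.1, 51, 54.1, 56 and 31.9 CPM at 7 weeks (-3.03 ± 0.24, edgeR adjusted p = 1.01e-08). The asparagine-specific protease legumain (Lgmn) was at 947, 695, 1172, 1657 and 1369 CPM at 2 weeks and 51.8, 73.6, 80, 86.6 and 53.5 CPM at 7 weeks (-4.08 ± 0.32, edgeR adjusted p = 6.43e-09). In neither did the ages overlap. Beta-galactosidase (Glb1) changed by -3.23 ± 0.31.

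Genes of arginine synthesis and breakdown moved in opposite directions in Ass1 and Arg2. Ass1, the argininosuccinate synthase that suckling enterocytes use to make arginine, was at 213, 131, 243, 248 and 239.9 CPM at 2 weeks and 1.14, 1.38, 1.14, 1.68 and 5.93 CPM at 7 weeks. Library 5 had the highest level of the 7-week libraries, and library 2 the lowest at 2 weeks, and the ages lay far apart (-6.54 ± 0.62, edgeR adjusted p = 5.98e-08; -7.37 without 7-week library 5). Arg2, the mitochondrial arginase that breaks arginine down, was at 143, 203, 30.2, 9.46 and 17.4 CPM at 2 weeks and 765, 728, 710.5, 743 and 836 CPM at 7 weeks (3.23 ± 0.57, edgeR adjusted p = 6.75e-05; 3.91 without 2-week library 2). Asl, the next enzyme after Ass1, changed by -1.72 ± 0.31, ornithine aminotransferase (Oat) by -1.90 ± 0.26 and ornithine transcarbamylase (Otc) by 1.75 ± 0.27. The list as a whole was mixed, with 5 of 13 up and 8 down (2 and 8 with library totals alone).

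Enzymes for foreign compounds were higher at 7 weeks without exception among those tested. All 33 tested genes of this list rose (median 3.18), and 28 did with library totals alone. Cyp1a1 (ENSMUSG00000032315, chromosome 9, 57687928 to 57703824), an oxidase induced through the aryl hydrocarbon receptor, was at 0.0561, 0.0639, 0, 0 and 0 CPM at 2 weeks and 214, 177, 118, 168 and 69.3 CPM at 7 weeks. It had no count in 3 of the 2-week libraries and was strong in every 7-week library (12.42 ± 1.07, edgeR adjusted p = 2.16e-08). Cyp2c29 was at 0.28, 0.703, 0.0609, 0 and 0 CPM at 2 weeks and 152, 697, 748, 483 and 672 CPM at 7 weeks (11.37 ± 0.96, and 12.57 without 2-week library 2), with library 1 the lowest at 7 weeks.

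Other members followed at smaller size. Cyp2b10, a target of the receptor CAR, rose from 0.205 to 13.2 CPM to 950.2 to 1492 CPM (8.13 ± 0.98, and 9.15 without 2-week library 2). The carboxylesterases Ces1g and Ces1f rose by 7.33 ± 0.38 and 6.34 ± 0.47, the glucuronosyltransferase Ugt1a9 by 7.15 ± 0.60, and the glutathione transferases Gstm1 and Gstt1 by 4.73 ± 0.30 and 3.43 ± 0.17. Aldh1a1, which makes retinoic acid, rose by 3.65 ± 0.32. Members of the Cyp2b, Cyp2c, Ces1 and Ugt1a families share long stretches of sequence, Ugt1a genes share exons, and their estimated counts are uncertain to that extent.

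The other genes among the 15 largest rises came from several functions. Slc28a1, a transporter of nucleosides, rose from 0.268 to 1.58 CPM to 148 to 294 CPM (8.21 ± 0.52, edgeR adjusted p = 7.76e-10). Hsd17b6, a hydroxysteroid dehydrogenase, rose by 7.29 ± 0.62 (7.99 without 2-week library 2), the membrane-bound carbonic anhydrase Car4 by 6.23 ± 0.40 and Trim38, a regulator of innate immune signalling, by 7.18 ± 0.48. Outside those 15, monoamine oxidase A (Maoa) rose by 5.72 ± 0.34. Ly6m, of the Ly6 family of surface proteins, was at 1000, 1150, 616, 873 and 50.8 CPM at 7 weeks, where library 5 was far below the other 4, and at 5.82 to 18.6 CPM at 2 weeks (6.14 ± 0.67).

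**Figure D3:**
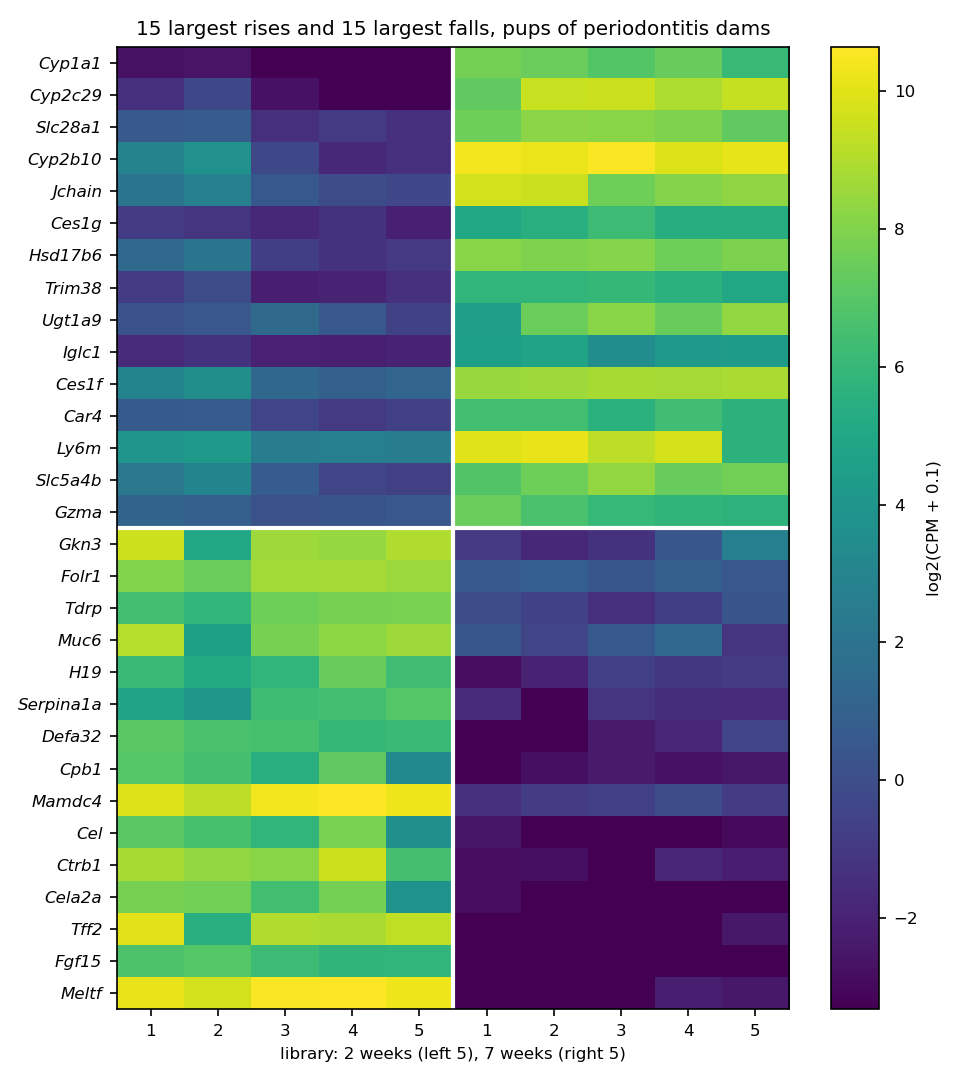
Levels of the 15 genes with the largest rises (above the white line) and the 15 with the largest falls (below it) in the 10 libraries of periodontitis pups, as log2 of CPM plus 0.1. Columns are libraries 1 to 5 at 2 weeks and 1 to 5 at 7 weeks. Each gene parts the ages in every library. Levels also vary within an age, as for Tff2, Gkn3 and Muc6, low in 2-week library 2, and Ly6m, low in 7-week library 5.

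Transcription factors of the epithelium shifted in part. Klf4, a factor of differentiated epithelium, rose by 2.27 ± 0.28, with 7-week library 5 at 203.9 CPM the lowest of its age. Gata4, a factor of the upper small intestine, rose by 1.15 ± 0.24 (edgeR adjusted p = 3.94e-04), a call that was lost with library totals alone (0.38).

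Crypt genes fell. Of 19 stem cell genes 14 fell and 1 rose (median -0.95), and of 30 proliferation genes 24 fell and 0 rose (median -1.28; -1.95 without 7-week library 5). Lgr5, the receptor that marks crypt base stem cells, was at 12.3, 10.1, 10.3, 14.3 and 13.1 CPM at 2 weeks and 1.18, 3.02, 3.29, 4.17 and 3.1 CPM at 7 weeks (-2.03 ± 0.38, edgeR adjusted p = 1.17e-04). The ages did not overlap, and library 1 was lowest at 7 weeks. The Wnt targets Ascl2, Axin2 and Ephb3 changed by -2.89 ± 0.47, -1.86 ± 0.25 and -3.32 ± 0.44, and without 7-week library 5 Ascl2 and Ephb3 changed by -3.78 and -4.05. Olfm4, another stem cell marker, did not pass (-0.37 ± 0.23, edgeR adjusted p = 0.163). The replication helicase subunit Mcm6 was at 77.9, 71.7, 72.1, 64.1 and 59.3 CPM at 2 weeks and 15.1, 12.4, 10.5, 10.3 and 48.2 CPM at 7 weeks, where 7-week library 5 came close to the 2-week range (-1.83 ± 0.34, and -2.53 without that library), and the proliferation marker Mki67 changed by -1.07 ± 0.38, with library 5 at 66.2 CPM within the 2-week range.

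Paneth cells, which sit at the crypt base and secrete defensins and lysozyme, gave a divided picture. Of 22 listed genes 12 fell and 1 rose (median -1.28); without 7-week library 5, 17 fell and the median was -2.12, and without 2-week libraries 1 and 2, 8 fell. Defa20 was at 264, 223, 160.1, 90.7 and 116 CPM at 2 weeks and 1.57, 0.921, 2.56, 2.99 and 8.97 CPM at 7 weeks (-5.62 ± 0.56, edgeR adjusted p = 1.09e-07; -6.43 without 7-week library 5), and Defa32 fell from 63.5 to 132 CPM to 0 to 0.665 CPM. Defa5 changed by -2.28 ± 0.47 and Habp2 by -3.44 ± 0.38. Without 7-week library 5 the fitted changes of Defa32 and Habp2 moved from -8.69 and -3.44 to -10.37 and -4.06. Alpha-defensin genes are near copies of each other, so counts of single members are uncertain. Lysozyme (Lyz1) did not pass (0.16 ± 0.63, edgeR adjusted p = 0.829): it was at 430.4, 478, 142, 71 and 123 CPM at 2 weeks and 98.2, 102, 146, 125 and 924 CPM at 7 weeks, with 7-week library 5 above every other library, and its change without that library was -1.10.

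Goblet cell genes went in both directions. Of 17 genes 8 rose and 6 fell (median 0.57), and with library totals alone the numbers were 4 and 7 and the median -0.21. Zg16, a lectin of the mucus that binds bacteria, was at 844, 789.6, 259, 121 and 258 CPM at 2 weeks and 4149, 3544, 3473, 3309 and 2228 CPM at 7 weeks (2.88 ± 0.39, edgeR adjusted p = 4.29e-06), without overlap. The membrane mucin Muc13 rose by 1.49 ± 0.19, while the gel-forming mucin Muc2 rose by 1.23 ± 0.28, a call lost with library totals alone (0.44). Creb3l1, a transcription factor of secretory cells, changed by -1.79 ± 0.17.

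Antibacterial proteins differed widely between libraries. Of 20 antimicrobial genes 11 rose and 4 fell (median 1.11), and over the list the libraries of the 2 ages overlapped. With library totals alone 10 rose and 6 fell. Reg3g, which kills gram-positive bacteria, was at 41.8, 34.8, 7.45, 18.2 and 8.45 CPM at 2 weeks and 797, 177, 124, 46.7 and 27.1 CPM at 7 weeks. Library 1 of 7 weeks exceeded the others several-fold and library 5 lay within the 2-week range (3.40 ± 0.78, edgeR adjusted p = 8.12e-04; 2.08 without 7-week library 1). Reg3b went the same way, with 1703, 547, 479, 273 and 55.4 CPM at 7 weeks against 19.8 to 154 CPM (2.99 ± 0.67, and 2.13 without 7-week library 1). Reg3a rose by 5.06 ± 0.66 without overlap (5.73 without 2-week library 2), Reg1 by 2.81 ± 0.34, and Ido1, which degrades tryptophan, by 5.13 ± 0.68 (5.75 without 2-week library 2).

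Rare epithelial types changed member by member. Of 15 tuft cell genes, of the chemosensory cells of the epithelium, 9 rose and 2 fell (5 and 4 with library totals alone): the ion channel Trpm5 rose by 2.60 ± 0.32, and Hpgds, the prostaglandin D synthase that other cells also make, changed by -3.45 ± 0.30. Of 23 enteroendocrine genes 7 rose and 11 fell (4 and 16 with library totals alone). The hormones of the upper intestine Gip and Cck rose by 1.37 ± 0.15 and 1.61 ± 0.14. Pyy, a hormone of the lower intestine, was at 14.6, 10.2, 16.2, 15.8 and 17.1 CPM at 2 weeks and 1.14, 1.59, 0.312, 1.25 and 1.16 CPM at 7 weeks (-3.78 ± 0.31, edgeR adjusted p = 1.30e-08), without overlap.

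Genes of T cells and intraepithelial lymphocytes mostly rose. Of 28 genes of T cells and intraepithelial lymphocytes 20 rose and 5 fell (median 2.86). Granzyme A (Gzma; ENSMUSG00000023132, chromosome 13, 113093825 to 113100981), a protease of cytotoxic granules, was at 2.19, 1.77, 0.994, 1.13 and 1.3 CPM at 2 weeks and 172, 98.3, 66.3, 55.4 and 52.8 CPM at 7 weeks (5.91 ± 0.38, edgeR adjusted p = 8.95e-10). Library 1 was the highest at 7 weeks, and the lowest 7-week library was still far above 2 weeks. Gzmb rose by 5.84 ± 0.47, the chemokine Ccl5 by 5.42 ± 0.41 and Cd7 by 4.38 ± 0.31. Cd3e, a subunit of the T cell receptor complex, was at 0.972, 0.81, 0.852, 0.529 and 0.581 CPM at 2 weeks and 18, 9.67, 6.51, 3.93 and 7.72 CPM at 7 weeks (3.61 ± 0.41). Cd8a rose by 4.32 ± 0.35 and Trdc, the constant chain of the gamma-delta receptor, by 2.93 ± 0.38. Il15, a cytokine that sustains intraepithelial lymphocytes, rose by 3.40 ± 0.33.

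Antibody genes mostly rose as well. Of 17 plasma cell and antibody genes 11 rose and 2 fell (median 2.89). Igha, the IgA heavy chain, was at 25, 49.4, 8.5, 4.86 and 6.3 CPM at 2 weeks and 1341, 454, 146, 95.3 and 1899 CPM at 7 weeks. The 7-week libraries differed widely among themselves but stayed above 2 weeks (5.39 ± 1.02, edgeR adjusted p = 1.29e-04; 4.74 without 7-week library 5 and 6.14 without 2-week library 2). Jchain, which joins IgA into dimers, was at 4.11, 6.73, 1.34, 0.836 and 0.693 CPM at 2 weeks and 815, 740.4, 189.8, 264 and 315 CPM at 7 weeks (7.40 ± 0.75, and 8.05 without 2-week library 2). The light chain Iglc1 rose by 6.69 ± 0.56, and it shares sequence with other lambda chains. Pigr, the receptor that carries IgA into the gut lumen, was at 690.1, 883, 306, 163 and 259 CPM at 2 weeks and 5924, 5794, 4303, 5750 and 5559 CPM at 7 weeks (3.57 ± 0.40, edgeR adjusted p = 5.14e-07). Tnfsf13, the plasma cell factor APRIL, rose by 3.08 ± 0.24.

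Of 19 B cell and follicle genes 11 fell and 1 rose (median -1.58), and without 2-week libraries 1 and 2, 5 fell. Without 7-week library 4 the number was 14 and the median -2.33. Pax5, which defines the B lineage, was at 1.25, 1.43, 0.731, 0.819 and 0.358 CPM at 2 weeks and 0, 0, 0, 0.561 and 0.0289 CPM at 7 weeks, so that only library 4 had more than a trace at 7 weeks (-3.31 ± 0.97, edgeR adjusted p = 0.00553; -6.20 without it). Cd22 changed by -1.75 ± 0.46 and the homing receptor Ccr7 by -3.14 ± 0.71. Follicles are unevenly spread along the intestine, and whether a piece held one is not in the labels.

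Among myeloid genes more fell than rose. Of 25 macrophage and dendritic cell genes 15 fell and 4 rose (median -0.93), and without 2-week libraries 1 and 2, 9 fell. Csf1r, the receptor macrophages need, was at 110.5, 89.4, 114, 126 and 122 CPM at 2 weeks and 16, 10.5, 8.52, 7.73 and 34.2 CPM at 7 weeks (-2.86 ± 0.44, edgeR adjusted p = 1.50e-05), with library 5 the highest at 7 weeks and no overlap. The chemokine receptor Cx3cr1 changed by -1.91 ± 0.27. Siglecf, a sialic acid receptor of eosinophils also found on tuft cells, rose by 2.44 ± 0.25.

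**Figure D4:**
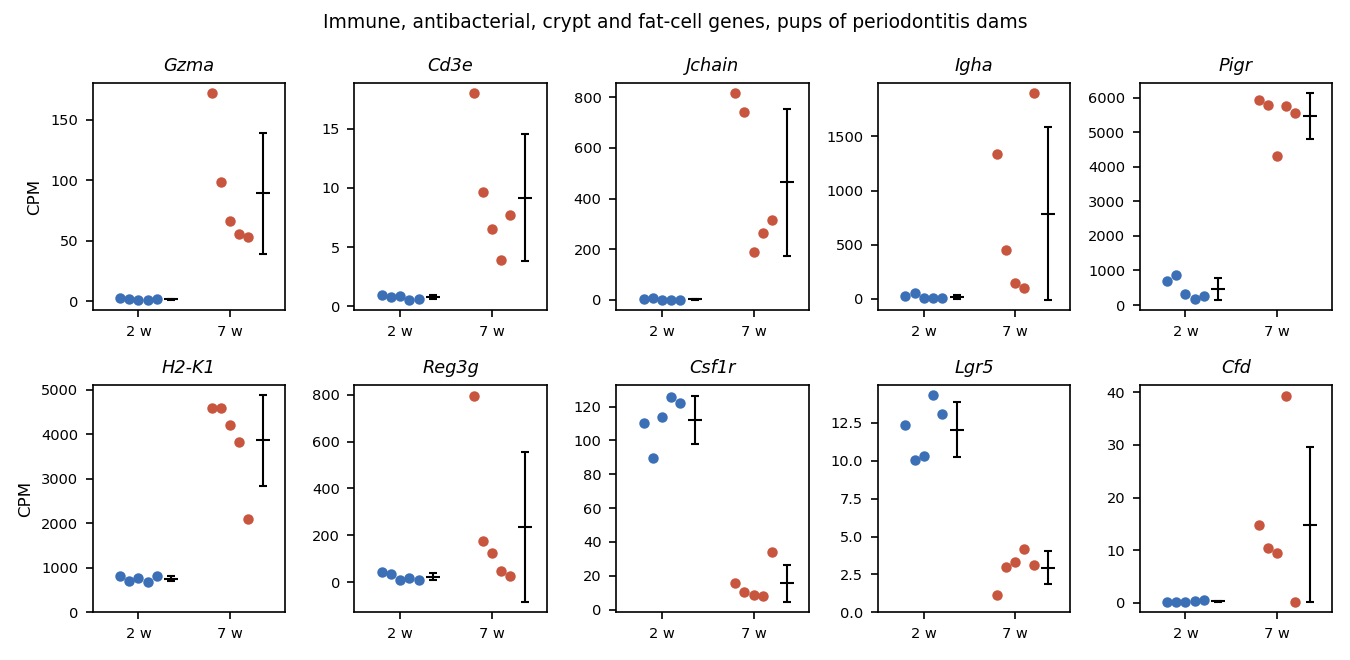
CPM of 10 immune, antibacterial, crypt and fat cell genes at 2 weeks (2 w, blue) and 7 weeks (7 w, red) in periodontitis pups. Points are libraries 1 to 5 in order, and the black mark with bars is the mean with SD. Gzma, Cd3e, Jchain, Igha, Pigr and H2-K1 are higher at 7 weeks in every library, Csf1r and Lgr5 are lower, and Reg3g and Cfd overlap with 2 weeks through library 5.

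Antigen presentation divided by class. Of 20 MHC class I genes 19 rose and 0 fell (median 1.64), and with library totals alone 12 rose and 1 fell (median 0.82). H2-K1, a classical class I chain, was at 816, 704, 774, 684 and 825 CPM at 2 weeks and 4586, 4580, 4205, 3818 and 2107 CPM at 7 weeks (2.34 ± 0.20, edgeR adjusted p = 2.04e-08), and the immunoproteasome subunit Psmb9 rose by 2.05 ± 0.19. H2 class I genes are near copies, so their single values are uncertain. Of 11 class II genes 0 rose and 2 fell, and 7 fell with library totals alone. H2-Ab1 did not pass (0.63 ± 0.30, edgeR adjusted p = 0.0698), and the protease Ctss, which trims the class II chaperone, changed by -0.53 ± 0.16.

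Of 31 interferon-stimulated genes 18 rose and 1 fell (median 0.70), but with library totals alone 8 rose, 9 fell and the median was -0.15. Over the list the mean log2 CPM of 7-week library 5 was 3.83, below the 4.19 to 4.49 of the 2-week libraries. The other 7-week libraries, 1 to 4, were at 5.01 to 5.49. Oas3, a sensor of double-stranded RNA, was at 97.5, 82.8, 61.6, 50.2 and 10.7 CPM at 7 weeks, with library 5 closest to the 3.29 to 7.46 CPM of 2 weeks (3.52 ± 0.45). Ifit2 was the 1 that fell: it was at 21.9, 16.8, 68.4, 57.9 and 117 CPM at 2 weeks and 4.21, 4.04, 2.6, 2.87 and 3.76 CPM at 7 weeks (-4.01 ± 0.40, edgeR adjusted p = 1.22e-07), without overlap.

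Of 33 receptors for microbial products 10 rose and 12 fell, and with library totals alone 3 rose and 21 fell. Tlr5, the receptor for flagellin, was at 2.95, 2.6, 4.46, 4.47 and 3.64 CPM at 2 weeks and 0.0786, 0, 0.0693, 0.125 and 0.318 CPM at 7 weeks (-4.77 ± 0.44, edgeR adjusted p = 4.93e-08; -5.71 without 7-week library 5), and Tlr2 changed by -2.62 ± 0.32. Tlr3, a receptor for viral RNA, rose by 2.38 ± 0.31, and Nlrc4, which forms an inflammasome on bacterial proteins, by 1.14 ± 0.16.

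Genes of the tissue below the epithelium mostly fell. All 26 collagen and matrix genes fell (median -3.08, and -3.68 without 7-week library 5), as did all 20 genes of blood and lymph vessels (median -2.19). Of 22 genes of enteric neurons and glia 19 fell and 0 rose (median -2.31, and -2.92 without 7-week library 5), and of 18 smooth muscle genes 11 fell and 0 rose. The summed level of the matrix list was 3127 to 5579 CPM at 2 weeks and 338 to 1200 CPM at 7 weeks.

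Elastin (Eln), the rubber-like protein of vessels and wall, was at 115, 142, 209.6, 236 and 173 CPM at 2 weeks and 2.04, 2.81, 5.58, 9.47 and 18.1 CPM at 7 weeks (-4.52 ± 0.47, edgeR adjusted p = 2.00e-07; -5.17 without 7-week library 5). All 7-week libraries lay far below 2 weeks, library 5 least so. Sparc changed by -2.57 ± 0.28 and periostin (Postn) by -3.84 ± 0.41. In vessels Eng, a co-receptor for TGF-beta, was at 56.7, 50.9, 55.6, 52.7 and 56.5 CPM at 2 weeks and 6.21, 6.34, 4.82, 4.61 and 17.6 CPM at 7 weeks (-2.77 ± 0.35), Tek, the angiopoietin receptor, changed by -2.21 ± 0.26 and the cadherin Cdh5 by -2.47 ± 0.29. Ret, the receptor that enteric neurons need to form, changed by -3.10 ± 0.19, Sox10 of glia by -3.53 ± 0.43 (-4.16 without 7-week library 5) and the actin Acta2 by -2.33 ± 0.37.

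Growth genes of fetal life followed. Of 22 fetal and imprinted growth genes 20 fell and 0 rose (median -2.64). H19 (ENSMUSG00000000031, chromosome 7, 142575529 to 142578143), a maternally expressed noncoding RNA, was at 69, 37, 58.1, 169.8 and 80.7 CPM at 2 weeks and 0.0393, 0.153, 0.52, 0.374 and 0.434 CPM at 7 weeks (-8.03 ± 0.60, edgeR adjusted p = 4.03e-09). Igf2, the fetal growth factor of the same domain, was at 51.9, 44.4, 60.8, 86.6 and 58.5 CPM at 2 weeks and 2.6, 4.14, 5.65, 4.42 and 5.76 CPM at 7 weeks (-3.74 ± 0.22, edgeR adjusted p = 4.40e-10). Neither overlapped between the ages. Gpc3, a growth-restraining proteoglycan, changed by -5.82 ± 0.45, and Grb10, an inhibitor of insulin signalling, by -3.37 ± 0.32.

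Some of the largest falls belong to organs next to the small intestine or to its ends. Of 25 genes of pancreas and stomach 24 fell and 0 rose (median -10.48, or -10.29 with genes at a floor of 3 counts per group set to their bound). The summed level was 1527 to 3834 CPM in the 2-week libraries and 50.9 to 76 CPM in the 7-week libraries. The pancreatic chymotrypsinogen Ctrb1 was at 458, 332, 282, 776 and 92.7 CPM at 2 weeks and 0.0393, 0.0512, 0, 0.187 and 0.116 CPM at 7 weeks, so every 2-week library held it and the 7-week libraries held traces or none. Pancreatic elastase Cela2a was 18990 times lower (95% counting interval 3408 to 750100 times) at 7 weeks, and the lipase Cel 4663 times lower (95% counting interval 1596 to 22610 times); these intervals cover counting error only. Without 7-week library 1 their fitted changes moved from -13.63 to -15.36 and from -11.90 to -12.93. The carboxypeptidase Cpb1 changed by -10.29 ± 1.10. Serpina1a, an antitrypsin most abundant in liver, changed by -8.22 ± 0.71 and the complement gene C8b by -6.18 ± 0.76.

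Gastric and duodenal gland genes fell together. Trefoil factor 2 (Tff2), of gastric and duodenal glands, was at 1053, 43.4, 497, 466 and 631 CPM at 2 weeks and 0, 0, 0, 0 and 0.0868 CPM at 7 weeks; it was 22690 times lower (95% counting interval 7763 to 110000 times) at 7 weeks. The gland mucin Muc6 was at 549, 24.6, 216, 305 and 380.3 CPM at 2 weeks and 0.347 to 2.62 CPM at 7 weeks, and gastrokine 3 (Gkn3) at 772, 33.3, 392, 350.2 and 499 CPM and 0.205 to 6.48 CPM. All 3 were lowest in 2-week library 2. Without 7-week library 5 the fitted changes moved from -7.82 to -9.68 for Gkn3 and from -14.27 to -17.22 for Tff2.

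Genes of the far end fell too. Fgf15 (ENSMUSG00000031073, chromosome 7, 144896531 to 144900953), the ileal hormone that restrains bile acid synthesis, was at 107, 126, 75, 55.2 and 57.5 CPM at 2 weeks and had 0 counts in all 5 libraries of 7 weeks, at least 3469-fold lower. Fabp6, the ileal bile acid binding protein, was at 365, 328, 17.4, 2.92 and 8.07 CPM at 2 weeks, high only in libraries 1 and 2, and also had 0 counts in every 7-week library, at least 5954-fold lower. These floors are 3 counts over the group, and without 2-week library 1 the fitted change of Fabp6 moved from -15.31 to -14.58. Of 15 distal genes 10 fell and 3 rose (median -2.08), and of 14 proximal genes 10 rose and 2 fell (median 1.48). Fgf15 and Fabp6 of the far end, Tff2 of the glands and Ctrb1 of the pancreas were thus present in every 2-week library and at 0 or at trace levels at 7 weeks. Since the labels give no segment, age and the stretch of intestine sampled cannot be told apart for any gene that varies along the intestine.

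Nuclear genes of the respiratory chain were higher at 7 weeks: all 25 of the list rose (median 1.27), and 12 did with library totals alone. Ndufa1 of complex I rose by 2.21 ± 0.16 and Cox6a1 of complex IV by 1.78 ± 0.16. Of 13 protein-coding genes of the mitochondrial genome 5 rose and 0 fell (median 1.17). The number that rose was 3 with library totals alone (median 0.36) and 3 without 7-week library 4. It was 2 with the covariate for Y-linked transcripts (median 0.52) and 12 with limma-voom. In control pups 0 rose and 0 fell (median -0.79), and 0 of these genes passed the test of a difference between dams. Among the 2-week control libraries, library 5 had 29.4% of its counts from the mitochondrial genome. Of 24 ribosomal protein genes 14 fell and 0 rose (median -0.64), and with library totals alone 23 fell.

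In pups of control dams most of the genes called in both kinds of pups changed in the same direction. In them 4740 genes rose (27.1%) and 5999 fell (34.4%), 61.5% in all. Of the genes called in periodontitis pups 81% were also called in control pups, and of those called in control pups 87% were also called in periodontitis pups. Of the 9346 called in both, 9340 had the same direction. Across genes, which are not independent replicates, the 2 sets of fold changes had a Pearson r of 0.914. A further 2196 genes passed in periodontitis pups only and 1393 in control pups only, yet of these only 3 and 0 passed a test of the difference itself. Library 5 of the 2-week control pups stood apart: it held 14882204 counts and 29.4% of them came from the mitochondrial genome, against 3.99 to 4.87% in the other 4, and its group's lowest correlation between libraries was 0.876. Without it 5794 genes rose and 6614 fell in control pups, and 6284 and 7094 in periodontitis pups, since all libraries share 1 estimate of spread. The part of RNA quality in these counts was not tested.

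That test called 4 genes (0.0229% of 17464) with a larger step in periodontitis pups and 0 with a smaller one, with 1537 genes at an unadjusted p under 0.05. The 4 were Klf15, Cfd, Scd1 and Retn. Klf15 (ENSMUSG00000030087, chromosome 6, 90462576 to 90475238), a factor of fasting metabolism that responds to glucocorticoids, was at 1.44, 1.28, 1.36, 2.32 and 1.39 CPM at 2 weeks and 9.4, 7.21, 26.8, 9.78 and 17.1 CPM at 7 weeks in periodontitis pups, without overlap. In control pups it was at 2.37 to 4.67 CPM at 2 weeks and 2.62 to 4.43 CPM at 7 weeks. The steps were 3.17 ± 0.33 and 0.02 ± 0.31, a difference of 3.16 ± 0.44 (edgeR adjusted p = 0.01). Scd1 (ENSMUSG00000037071, chromosome 19, 44394455 to 44407879), which makes monounsaturated fatty acids, was at 3.48, 4.37, 3.37, 4.04 and 3.89 CPM at 2 weeks and 10.8, 11.3, 38, 28.5 and 18.9 CPM at 7 weeks, and at 4.59 to 7.15 CPM and 4.32 to 6.56 CPM in control pups. The difference of the steps was 2.41 ± 0.39 (edgeR adjusted p = 0.0238).

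The other 2, Cfd and Retn, are genes of fat cells. Of the 16 tested genes of the adipocyte list, 3 passed the test of a difference between dams. Cfd (ENSMUSG00000061780, chromosome 10, 79890853 to 79892655), the adipose complement factor adipsin, was at 0.206, 0.192, 0.142, 0.358 and 0.447 CPM at 2 weeks and 14.8, 10.4, 9.49, 39.4 and 0.174 CPM at 7 weeks: 4 of the 7-week libraries had it and library 5 was at the 2-week level. In control pups it was at 1.96, 1.52, 3.07, 3.98 and 0.402 CPM at 2 weeks and 1.09, 0.589, 0.492, 0.389 and 0.845 CPM at 7 weeks. The difference of the steps was 7.47 ± 1.12 (edgeR adjusted p = 0.0156). Retn (ENSMUSG00000012705, chromosome 8, 3655770 to 3660110), the adipocyte hormone resistin, was at 0.0561, 0.0426, 0.0406, 0 and 0.0894 CPM at 2 weeks and 1.02, 1.64, 1.11, 3.61 and 0.0289 CPM at 7 weeks, and at 0.31, 0.276, 0.227, 0.374 and 0.161 and 0.0995, 0.0981, 0, 0.0389 and 0.0805 CPM in control pups (7.05 ± 1.15, edgeR adjusted p = 0.0238). Without 7-week library 4, the highest, the step in periodontitis pups moved from 5.76 to 5.00 for Cfd and from 4.92 to 4.29 for Retn. Across the alternatives examined the difference call of Klf15 was lost in 1 of 32 (the replicate block), that of Cfd in 7 of 32, that of Scd1 in 15 of 32 and that of Retn in 15 of 31. Adiponectin (Adipoq) was next by p and did not pass (6.72 ± 1.29, edgeR adjusted p = 0.125), nor did the lysophospholipid transporter Mfsd2a, whose step was smaller in periodontitis pups (-2.07 ± 0.40, edgeR adjusted p = 0.125).

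Over the 16 adipocyte genes, 7 rose and 3 fell in periodontitis pups (median 1.06; with library totals alone 5 rose and 6 fell, median 0.26) and 3 rose and 9 fell in control pups (median -1.55). Their summed level in periodontitis pups was 353 to 391 CPM at 2 weeks and 459 to 836 CPM at 7 weeks. Abundant members weigh most in that sum, such as Lipe, with steps of 1.64 in periodontitis and 1.66 in control pups. Over the list the ages overlapped in mean log2 CPM. There 7-week library 5, at 1.523, lay below every 2-week library, and the other 7-week libraries, at 2.662 to 3.636, lay above them. The part of attached fat tissue in these values was not tested. The number of genes with a different step was not stable: it was 21 higher and 5 lower without 7-week periodontitis library 5, 11 and 3 without 2-week periodontitis library 2, 8 and 1 without 2-week control library 5, and 1 and 0 without 2-week periodontitis library 1 or 3 or 7-week control library 2, 3, 4 or 5.

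**Figure D5:**
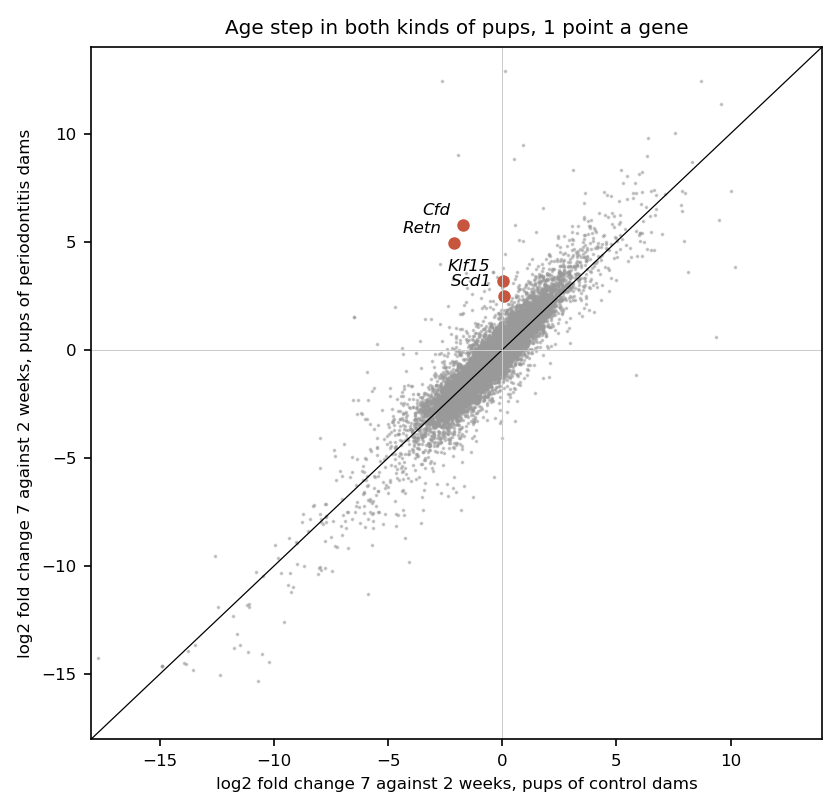
Log2 fold change from 2 to 7 weeks in pups of control dams (horizontal) and of periodontitis dams (vertical), 1 point for each of 17464 genes. The line marks equal steps, and red points are the 4 genes whose steps differed. Most genes lie along the line, while Cfd and Retn lie above it with a rise in periodontitis pups and a negative step in control pups, and Klf15 and Scd1 with a rise in periodontitis pups and a step near 0 in control pups.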

How the data were processed

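The authors deposited 1 table of expected counts, RSEM's estimated counts per gene, for 20 libraries. Per the submitters' processing notes, cutadapt 4.8, FastQC 0.11.8, STAR 2.7.8a and RSEM 1.3.3 were used, and the builds GRCh38 and GRCm38 are named; the table holds mouse genes. Strandedness is not given in the sources used here, so overlapping and antisense genes cannot be told apart. Of 55491 lines, 4 name no mouse gene, hold 0 counts and were left out. Counts were taken as whole numbers (rounding changed 0 values), filtered with filterByExpr (17464 genes) and scaled by TMM. All 20 libraries entered 1 fit in R 4.3.3 with edgeR 4.0.16 (robust quasi-likelihood test, 16 residual degrees of freedom, two-sided, Benjamini-Hochberg over all genes tested, threshold 0.05). Standard errors were obtained from each fold change and the root of its quasi-likelihood F statistic. The procedure was tested on simulated data with independent libraries and few changed genes. That setting is unlike this comparison, so the test does not bear on the scaling or on shared litters. Gene positions are from GENCODE M21 on GRCm38.

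Named genes are the 15 largest rises and 15 largest falls among called genes with mean log2 CPM of at least 1 (predicted loci, receptor segments and sex-linked genes left out), up to 4 members of each list by p, the 6 smallest p for the difference between dams, and well-known genes of the tissue listed beforehand. The gene lists and the comparison were chosen with earlier results of these data known, so lists carry counts and medians and no p. Alternatives were DESeq2 1.42.0, limma 3.58.1 voom with sample weights, other scalings and filters, a covariate for Y-linked transcripts, a replicate block, and leaving out single libraries or those that stand apart.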

Additional observations from a re-analysis of the deposited data

Results flagged for a closer look

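Each group of 5 libraries of an age was examined, on the log2 scale, for a library whose gap to its nearest neighbour took up more than 0.71 of the whole range. Of 395 groups, over named genes and gene lists, 40 held such a library (10.1%), where chance gives about 1 in 20. At 7 weeks there were 35, of which 26 concerned library 5, and at 2 weeks there were 5. In parentheses below stand the library's CPM, the range of the other 4 and the share of the range taken by the gap. Another 5 groups with at most 3 counts in all were not examined.

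In 7-week library 5 the level was low for genes of digestion and fat handling, namely Sis (2372 against 3272 to 3498 CPM, 0.828), Mme (948 against 1561 to 1730 CPM, 0.829), Slc15a1 (215 against 552 to 658 CPM, 0.843), Fabp1 (2712 against 4485 to 5287 CPM, 0.754), Sar1b (266 against 509 to 591 CPM, 0.812) and Rbp2 (3841 against 6729 to 8187 CPM, 0.741). It was also low for Ly6m (50.8 against 616 to 1150 CPM, 0.8), Neu1 (31.9 against 50.1 to 56 CPM, 0.801), Klf4 (204 against 638 to 786 CPM, 0.845), H2-K1 (2107 against 3818 to 4586 CPM, 0.764), Nlrc4 (43.3 against 69.9 to 83.5 CPM, 0.729), Cfd (0.174 against 9.49 to 39.4 CPM, 0.724), Guca2b (752 against 1727 to 2307 CPM, 0.741) and Cldn15 (606 against 902 to 1033 CPM, 0.746). It was high for Ass1 (5.93 against 1.14 to 1.68 CPM, 0.768), Slc11a2 (126 against 53.4 to 67.6 CPM, 0.724), Lyz1 (924 against 98.2 to 146 CPM, 0.824), Mcm6 (48.2 against 10.3 to 15.1 CPM, 0.755) and Eng (17.6 against 4.61 to 6.34 CPM, 0.763). Its mean log2 CPM was high over the lists arginine and urea cycle (5.89 against 5.31 to 5.39, 0.861), Paneth cell (4.84 against 2.44 to 3.03, 0.754), proliferation (4.60 against 2.52 to 2.93, 0.802) and endothelium (3.09 against 1.68 to 2.01, 0.765). The mean was low over the lists ileal bile acid (2.27 against 2.47 to 2.50, 0.858), interferon-stimulated (3.83 against 5.01 to 5.49, 0.712) and distal small intestine (2.81 against 3.69 to 3.96, 0.76). For Sis, Mme, Slc15a1, Fabp1, Sar1b, Rbp2, Ass1, Mcm6 and Eng the library lay between the 2-week range and the other 7-week libraries. For Neu1 it lay farther from the 2-week range than they did. The same held over the distal list, at 5.44 to 6.77 at 2 weeks. It also held over the proximal small intestine list, which was not flagged. There library 5 was at 9.35, the other 7-week libraries at 8.63 to 8.88 and the 2-week libraries at 7.03 to 8.38.

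Library 2 of 2 weeks was low for Tff2 (43.4 against 466 to 1053 CPM, 0.744), Gkn3 (33.3 against 350.2 to 772 CPM, 0.748) and Ass1 (131 against 213 to 248 CPM, 0.758). Library 4 of 2 weeks was low for Lct (820.4 against 1069 to 1172 CPM, 0.742). Library 4 of 2 weeks was high for Klf15 (2.32 against 1.28 to 1.44 CPM, 0.802). Library 1 of 7 weeks was low for Cyp2c29 (152 against 483 to 748 CPM, 0.726), Ugt1a9 (23 against 170.4 to 328 CPM, 0.753) and Lgr5 (1.18 against 3.02 to 4.17 CPM, 0.741). Library 2 of 7 weeks was low for Serpina1a (0 against 0.231 to 0.346 CPM, 0.829). Library 3 of 7 weeks was low for Pyy (0.312 against 1.14 to 1.59 CPM, 0.788) and Pigr (4303 against 5559 to 5924 CPM, 0.801). Library 4 of 7 weeks was low for Gstt1 (116 against 174 to 189.6 CPM, 0.83). Library 4 of 7 weeks was high for Pax5 (0.561 against 0 to 0.0289 CPM, 0.827). Over the list suckling endocytosis, 7-week library 2 was low with a mean log2 CPM of 3.97 against 4.28 to 4.38 (0.754).

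The step from 2 to 7 weeks differed between pups of dams with and without periodontitis in 4 genes by the edgeR interaction test. The difference was 3.16 in log2 units for Klf15, 7.47 for Cfd, 2.41 for Scd1 and 7.05 for Retn, each a larger step in periodontitis pups.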

How the results depend on the processing

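Of 3643 values of the 159 named genes under alternatives, 3621 kept their direction and their side of the threshold. Many of these genes were named for a large change or a small p in the same data, which favours such stability. None of these genes' calls of a change with age in periodontitis pups was lost by leaving out 1 library, while over all genes the shared calls fell to 10611 of 11542 without 7-week library 2. With library totals alone 2009 genes rose and 10444 fell in periodontitis pups and 1652 and 9925 in control pups, and the calls of Gata4 (0.38) and Muc2 (0.44) were lost; this scaling was chosen after seeing the data. That of Mki67 (-0.95) was lost without 2-week periodontitis libraries 1 and 2, and that of Xist (-3.92) with limma-voom. Directions turned for values that had not passed. H2-Ab1 was -0.14 with library totals alone. Lyz1 was -0.39 with library totals alone, -0.28 with limma-voom, -0.18 with the replicate block, -1.10 without 7-week library 5 (alone or with 2-week control library 5), -0.08 without 2-week library 4 and -0.01 without 2-week library 5, and leaving out 1 library gave -1.10 to 0.54. Mfsd2a was -0.60 with library totals alone and -0.15 without 2-week libraries 1 and 2. Of 941 list medians 866 stayed within the spread between libraries and 70 moved beyond it. With library totals alone the medians turned for goblet cells (-0.21), interferon-stimulated genes (-0.15), claudins (-0.23) and glycosyltransferases (-0.66), and without 2-week libraries 1 and 2 for ileal bile acid genes (0.052). The cause of these changes was not tested.

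Genes whose step differed between dams numbered 42 higher and 23 lower with DESeq2, 792 and 390 with limma-voom, 232 and 46 without 2-week periodontitis libraries 1 and 2, and 93 and 66 without 2-week control library 5 and 7-week periodontitis library 5. Leaving out 1 library gave 1 to 21 higher and 0 to 5 lower. Replicate numbers are shared between the groups, and the labels do not say whether they pair libraries. Same-numbered periodontitis libraries of the 2 ages deviated together with correlations of -0.024 to 0.15. With 5 libraries of each age these values cannot show whether equal numbers share a litter or a batch. With the replicate block 4911 genes rose and 6168 fell in periodontitis pups, 4729 and 5531 in control pups, and 0 differed between dams by edgeR (1308 at an unadjusted p under 0.05). Depth limits genes near 0. For Fgf15 and Fabp6, with 0 counts at 7 weeks, the folds are bounds, and the fitted changes printed for Fabp6 are not measured sizes. Retn had 11 counts in all at 2 weeks in periodontitis pups and 8 at 7 weeks in control pups, so its steps rest on few counts.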

Other observations

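Genes of salt and water transport moved in both directions. Of 21 such genes 14 rose and 6 fell (median 1.42). The guanylins, peptides that drive fluid secretion, moved oppositely: uroguanylin (Guca2b) was at 311, 243, 272, 249 and 260.4 CPM at 2 weeks and 1933, 2008, 2307, 1727 and 752 CPM at 7 weeks (2.71 ± 0.23, edgeR adjusted p = 1.68e-08), and guanylin (Guca2a) at 332, 244, 306, 354 and 286 CPM at 2 weeks and 43.8, 44.8, 57.1, 41.9 and 30.9 CPM at 7 weeks (-2.80 ± 0.20, edgeR adjusted p = 2.33e-09). Neither overlapped between the ages. The sodium-proton exchanger Slc9a3 rose by 1.79 ± 0.16 and the chloride exchanger Slc26a3 by 1.49 ± 0.21. Of 19 junction genes 11 rose and 5 fell (median 0.56; 4 and 7 with library totals alone, median -0.23). Cldn15, which forms sodium pores in the small intestine, rose by 2.93 ± 0.31 and Marveld3 by 1.29 ± 0.19. Cldn8, a barrier claudin of the lower gut, changed by -6.36 ± 0.48 (-7.26 without 7-week library 5), and Cldn18, a claudin of stomach and lung, by -7.15 ± 1.05.

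Enzymes that build sugar chains changed one by one (6 of 13 rose and 5 fell, and 5 and 7 did with library totals alone). The core fucosyltransferase Fut8 rose by 1.95 ± 0.19, B4galnt1 by 1.87 ± 0.26, and of 2 sialyltransferases St3gal4 rose by 2.55 ± 0.24 and St3gal1 changed by -2.21 ± 0.32. Of 18 clock genes 7 rose and 7 fell. Without 7-week library 4 or without 7-week library 5 the numbers were 7 and 4, and with library totals alone 4 and 11. The activators Clock, Arntl and Npas2 rose by 1.62 ± 0.22, 1.71 ± 0.18 and 1.44 ± 0.14, and the repressor Per2 fell (-1.83 ± 0.29). The hour of harvest is not in the labels, and age and hour cannot be told apart.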
